A study of Homo sapiens with 6 samples.

Results

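Axon guidance ligands and receptors were examined in NCI-H660 (H660) cells, an established neuroendocrine prostate cancer line, after silencing of MUC1. The genes were taken from the count table by symbol and comprise the semaphorins of classes 3 to 7, plexins, neuropilins, EPH receptors, ephrins, SLITs, ROBOs, netrins, DCC and the UNC5 receptors. Of 28008 symbols, 76 met this rule. These were 69 genes, of which 35 encode ligands and 34 encode receptors, and 7 symbols of antisense RNAs. The rule itself uses symbols only, but the families were picked with earlier results of these data known.

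By the series' design text, the H660 cells carried a MUC1 hairpin (shRNA) under tetracycline control. MUC1 is the gene for the mucin whose transmembrane subunit is MUC1-C, and the cells were a puromycin-selected population. Vehicle cultures received 0.1% DMSO (DOX-negative, n = 3) and silenced cultures received 500 ng/ml doxycycline (DOX) for 7 days (DOX-positive, n = 3). A single hairpin was used in these samples, and no DOX-treated line with a control hairpin was analysed here, so the effect of MUC1 loss and that of DOX itself cannot be told apart. Dose and vehicle also come from the design text, the 7 days come from the study's description of this experiment, and the groups come from the sample titles, since the genotype and treatment labels are the same for all 6 samples and name neither hairpin nor DOX. RNA was collected from 3 cultures per group per the labels, and total counts ranged from 47620696 to 74061121 per library. MUC1 itself stood at 88.2, 90.2 and 79.6 CPM (counts relative to the TMM-adjusted library total) with vehicle and at 36.7, 37.2 and 29.9 CPM under DOX. The groups did not overlap, and the log2 difference was -1.32 (SE 0.10, edgeR adjusted p = 0.00017).

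Semaphorins, ephrins, SLITs and netrins are secreted or membrane-bound cues that attract or repel growing axons. Plexins are the signaling receptors for semaphorins, and neuropilins are the co-receptors that bind most class 3 semaphorins. EPH receptors are receptor tyrosine kinases for ephrins, ROBOs bind SLITs, and DCC and the UNC5 receptors bind netrins. These families also act outside the nervous system, where they control cell contact, migration and vessel growth, and neuroendocrine cells share much of the neuronal expression program.

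The labelled cell type was checked against marker lists. All 10 neuroendocrine markers passed the count filter, with summed levels of 1820 to 2050 CPM without and 1569 to 1853 CPM with DOX. Of these, NCAM1, a neural adhesion molecule (-0.50, SE 0.09, edgeR adjusted p = 0.0142), and INSM1, a neuroendocrine transcription factor (-0.45, SE 0.11, edgeR adjusted p = 0.0389), fell. These 2 were 20% of the list, against 4.87% called among all tested genes. Of the 10 markers, 7 lay below and 3 above 0. The highest was CHGB (0.29, SE 0.11, edgeR adjusted p = 0.175), which did not pass. KLK3, a prostate luminal marker, had 0 counts throughout. Of the 8 prostate luminal markers, 3 were tested and 0 were called.

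The families were broadly represented. Of the 69 genes, 60 passed the count filter. Levels are compared between genes only in TPM, in which counts are divided by gene length and scaled to the same total in each library. In the DOX-negative libraries, 3 genes averaged at least 10 TPM, 35 averaged from 1 to under 10 TPM and 31 averaged under 1 TPM. UNC5B, a netrin receptor, was highest at 19.9 ± 3.82 TPM (SD, n = 3), followed by the semaphorin receptors PLXNA2 at 17.0 ± 2.46 TPM and PLXNB2 at 14.9 ± 2.33 TPM. The ranges of these neighbours over the DOX-negative libraries overlapped. Within each DOX-negative library, however, UNC5B was above PLXNA2 and PLXNA2 was above PLXNB2.

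The next 7 genes in order of mean level were the ephrin-B receptor EPHB1 (9.92 TPM), the semaphorin 4D receptor PLXNB1 (9.72 TPM), the transmembrane semaphorin SEMA4C (9.03 TPM), the ephrin EFNA1 (7.93 TPM), the ephrin-A receptor EPHA7 (7.57 TPM), the class 3 semaphorin receptor PLXNA1 (7.41 TPM) and the transmembrane semaphorin SEMA4B (6.79 TPM). In the DOX-negative libraries all of these were below PLXNB2 without overlap, and neighbours among them overlapped between libraries. All but EFNA1, SEMA4B and SEMA4C among the 10 highest genes encode receptors. SLIT3 and the endothelial receptor ROBO4 had 0 counts in every library and were not detectable at this depth. The other 7 genes that did not pass the filter were SEMA5A, PLXNA4, EPHA3, EPHB6, NTN5, UNC5C and UNC5D, with at most 4.50 mean counts. None of the 7 antisense symbols passed, and the highest of them was SEMA6A-AS1 with 10.2 mean counts.

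**Figure D1:**
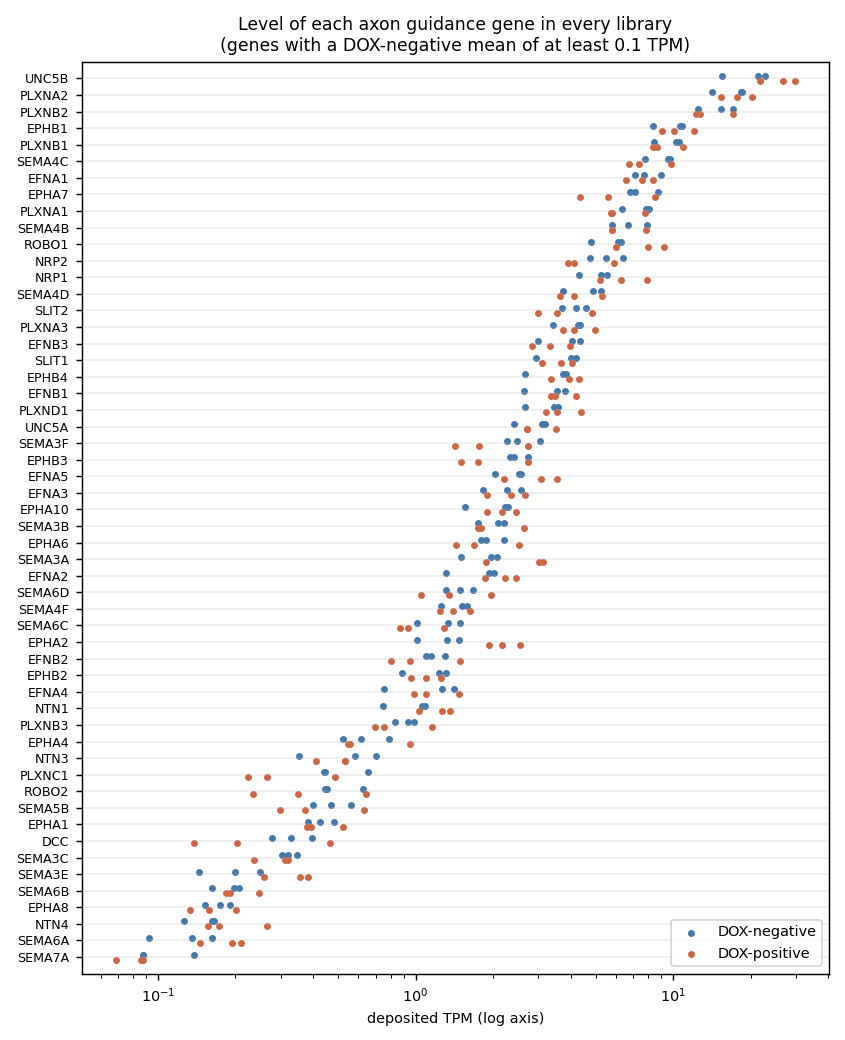
Deposited TPM on a log axis of each axon guidance gene with a DOX-negative mean of at least 0.1 TPM, with 1 point per library (blue, DOX-negative; orange, DOX-positive; n = 3 each). UNC5B was highest, at 15.5 to 29.8 TPM over the 6 libraries, and its DOX-negative points (15.5 to 22.7 TPM) and DOX-positive points (21.7 to 29.8 TPM) overlap on this scale.

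TPM also depends on the other RNAs of a library. The small RNA SNORD3A took 34.5% of all TPM in DOX-negative 3 and 18.6% to 24.8% in the other 5 libraries. Each of the 10 genes above had its lowest DOX-negative TPM in DOX-negative 3. The small RNA RN7SK took a further 21.2% to 27.1% of all TPM. Both RNAs lower the TPM of every other gene in every library. Changes were therefore tested on counts, and CPM normalized with TMM factors are used within a gene. A difference is given on the log2 scale with DOX-positive on top, and called means an adjusted p under 0.05 over all 17026 genes tested.

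Silencing of MUC1 was accompanied by higher levels of EPHA2, ROBO1, NRP1, SEMA3E, UNC5B and SEMA3A and lower levels of PLXNC1. These 7 called genes were 11.7% of the 60 tested genes, against 4.87% called among all tested genes. In the higher direction 6 were called (background 2.91%), and in the lower direction 1 was called (background 1.96%). The median change of the 60 genes was -0.04 against 0.00 for all genes, with 28 above and 32 below 0. Groups did not overlap for 12 higher and 10 lower genes, where the background was 14.8% and 13.3%. An unadjusted p under 0.05 was found for 22 genes (background 21.1%). The same background applies to the unadjusted counts given below for single families and lists in the fit of all 6 libraries. In a bulk library, fewer cells of a type and less RNA per cell cannot be told apart. Receptors held 5 of the 7 calls (5 of 28 tested) and ligands held 2 (of 32 tested), and the difference between these shares was not tested.

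The calls depended on single libraries. Without DOX-negative 2 or without DOX-negative 3, 0 members were called by edgeR, while the background of calls fell to 0.737% and 0.337%. An unadjusted p under 0.05 was found for 17 and 16 members. The share of all genes at that unadjusted threshold is not given here for these fits. Without DOX-positive 3, EPHA2, NRP1 and ROBO1 were called (background 2.17%). Without DOX-negative 1, 5 were called (background 3.68%). Without DOX-positive 1 there were 9 (background 6.02%), and without DOX-positive 2 there were also 9 (background 4.8%). With DESeq2, 10 members were called (background 8.43%), namely the same 7 and NRP2, EPHA7 and SEMA3F, all 3 lower. On deposited TPM, 0 members were called by limma-trend, where the background was 0.256% and 0.299% in the filtered fits and 0% in the unfiltered fit. An unadjusted p under 0.05 was found for 1 to 3 members. Among all genes it was found for 332 and 329 of 11707 in the filtered fits and 1248 of 21241 in the unfiltered fit. Once TPM were rescaled over protein-coding genes, 4 of 50 members were called (background 3.08%). The direction of each of the 7 was the same under each alternative.

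**Figure D2:**
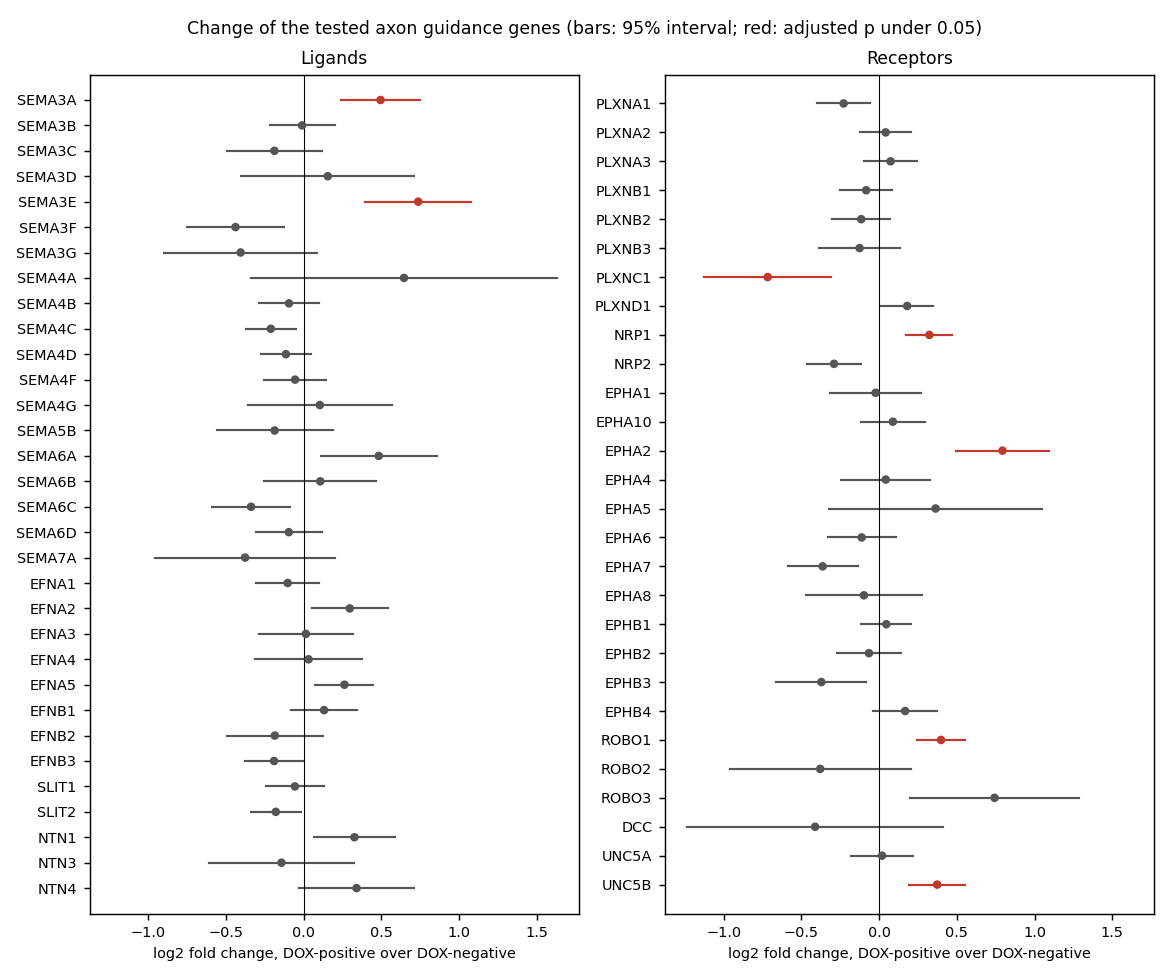
Log2 fold change, DOX-positive over DOX-negative, of the 32 tested ligands and 28 tested receptors, with bars for the 95% interval from edgeR and red for an adjusted p under 0.05. The 7 red points run from -0.72 (PLXNC1) to 0.79 (EPHA2), and most other intervals include 0.

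Promoters are shown for EPHA2, SEMA3E and ROBO1, the genes called higher whose RefSeq start (GRCh38.p14) has an entry in the promoter table. Each is the 250 bases before the start, read on the minus strand. They lie at chr1:16156070-16156319, chr7:83649140-83649389 and chr3:79767999-79768248, respectively. Capitals mark matches to 4 motifs searched on both strands, namely the TEAD motif GGAATG, the E-boxes CACGTG and CAGCTG, and the AP-1 motif TGANTCA. These motifs can overlap each other only in part.
EPHA2: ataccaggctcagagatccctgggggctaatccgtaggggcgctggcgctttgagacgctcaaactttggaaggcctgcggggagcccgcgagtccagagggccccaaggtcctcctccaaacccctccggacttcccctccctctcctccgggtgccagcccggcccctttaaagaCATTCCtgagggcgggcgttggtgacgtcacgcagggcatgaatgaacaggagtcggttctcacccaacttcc
SEMA3E: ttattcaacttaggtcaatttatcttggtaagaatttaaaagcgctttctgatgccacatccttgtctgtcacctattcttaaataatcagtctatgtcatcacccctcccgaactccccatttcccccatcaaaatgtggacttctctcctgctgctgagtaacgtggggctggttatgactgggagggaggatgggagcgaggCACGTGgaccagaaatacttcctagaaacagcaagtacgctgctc
ROBO1: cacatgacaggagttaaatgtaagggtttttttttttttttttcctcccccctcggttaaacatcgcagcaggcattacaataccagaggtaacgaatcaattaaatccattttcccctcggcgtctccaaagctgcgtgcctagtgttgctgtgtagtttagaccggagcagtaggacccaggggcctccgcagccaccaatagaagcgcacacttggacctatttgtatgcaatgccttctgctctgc
The EPHA2 window held the TEAD motif on the opposite strand, beginning 73 bases before the start. Of 27305 promoters, 11.9% held this motif, as did 3 of the 59 axon guidance genes with a window (EPHA2, PLXNB3 and SEMA4A). The SEMA3E window held CACGTG, beginning 45 bases before the start, which was present in 6.49% of all promoters and 4 of 59 members. CAGCTG was in 13.8% of all promoters and 7 of 59 members, and TGANTCA in 6.60% and 1 of 59. The ROBO1 window held none of the 4 motifs. GC content was 63.2% for EPHA2, 46.4% for SEMA3E and 48% for ROBO1, with a median of 58% over all promoters. NRP1, UNC5B and SEMA3A are named only, and the table's start for PLXNC1 is not the end of its annotated gene, so it is not shown.

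Among class 3 semaphorins, the secreted ligands that signal through plexins and neuropilins, 2 of 7 tested genes rose. SEMA3E, which binds PLXND1 directly, was at 2.41, 2.83 and 2.12 CPM without DOX and 3.59, 3.91 and 4.81 CPM with DOX. All 3 DOX-positive libraries were above all DOX-negative ones, a rise of 0.74 (SE 0.16, edgeR adjusted p = 0.0227) in a gene with only 212 mean counts. Leaving out 1 library ended the SEMA3E call in 4 of 6 cases, without any 1 of the DOX-negative libraries or without DOX-positive 3 (adjusted p up to 0.126).

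SEMA3A, the classical growth-cone collapsing ligand of NRP1, was at 21.0, 18.7 and 18.6 CPM without DOX and 25.5, 23.8 and 32.7 CPM with DOX. The groups did not overlap, and DOX-positive 3 stood above the others. SEMA3A rose by 0.49 (SE 0.12, edgeR adjusted p = 0.0349). The call was lost without DOX-negative 2, DOX-negative 3 or DOX-positive 3 (adjusted p up to 0.184), and without scaling factors. SEMA3A (chr7:83955777-84492725) and SEMA3E (chr7:83363238-83649139) lie 307 kb apart. SEMA3D and SEMA3C are on the same chromosome, and neither passed the test, at 0.16 (SE 0.26) and -0.19 (SE 0.14).

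SEMA3F, the preferred ligand of NRP2, is given here and was chosen after its values were seen. It was at 16.9, 19.7 and 18.9 CPM without DOX and 15.6, 15.2 and 10.1 CPM with DOX. The groups did not overlap, but the difference of -0.44 (SE 0.14, edgeR adjusted p = 0.103) did not pass. In TPM, the ratio of SEMA3A to SEMA3F was 0.841, 0.643 and 0.666 in the DOX-negative and 1.10, 1.06 and 2.19 in the DOX-positive libraries, and the groups did not overlap. This pair and those below were also chosen after the values were seen and carry no test.

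Of the 12 tested semaphorins of classes 4 to 7, which are mostly membrane-bound, 0 passed the edgeR test, 3 had an unadjusted p under 0.05 and 8 lay below 0. The largest difference in a gene with at least 50 mean counts was in SEMA6A, a transmembrane ligand of class A plexins, at 1.69, 1.92 and 1.41 CPM without and 2.04, 2.29 and 2.73 CPM with DOX (0.48, SE 0.17, edgeR adjusted p = 0.130). SEMA4C, the ligand of PLXNB2 and the highest of this group in TPM, was at 57.0 to 59.1 CPM without and 47.4 to 52.8 CPM with DOX (-0.21, SE 0.07, edgeR adjusted p = 0.127). The groups did not overlap for either gene. SEMA4B overlapped between groups at 47.9 to 53.5 CPM and 43.4 to 52.4 CPM (-0.09, SE 0.09).

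Of the 8 tested plexins, only PLXNC1 passed the test. PLXNC1, a receptor for SEMA7A, was at 6.06, 8.41 and 7.35 CPM without DOX and 5.56, 4.55 and 3.16 CPM with DOX. DOX-positive 1 was close to DOX-negative 1, and DOX-positive 3 was lowest. PLXNC1 fell by 0.72 (SE 0.19, edgeR adjusted p = 0.0494), close to the threshold. The call was lost without DOX-negative 2, DOX-negative 3, DOX-positive 2 or DOX-positive 3 (adjusted p up to 0.187), and with limma-voom, a stricter filter, no scaling factors or no robust estimation. Its ligand SEMA7A averaged 36.0 counts and was at 0.532 to 0.792 CPM without and 0.434 to 0.673 CPM with DOX (-0.38, SE 0.27). PLXNC1 overlaps CEP83 on the other strand on chromosome 12. CEP83, which encodes a centriole protein, did not pass the test (0.04, SE 0.12), and the strand setting of the counting was not given in the sources used here.

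The more abundant plexins were measured with narrow intervals. PLXNA2 differed by 0.04 (95% interval -0.12 to 0.21), PLXNB1 by -0.08 (-0.25 to 0.08) and PLXNB2 by -0.12 (-0.30 to 0.07). PLXNA1 was at 128, 125 and 126 CPM without and 107, 118 and 98.9 CPM with DOX. Its groups did not overlap, and the difference of -0.23 (SE 0.08, edgeR adjusted p = 0.119) did not pass. PLXND1, the SEMA3E receptor, was at 40.6 to 43.0 CPM without and 45.9 to 50.7 CPM with DOX (0.18, SE 0.08, edgeR adjusted p = 0.209), and was chosen for its ligand.

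The neuropilins, which are co-receptors for class 3 semaphorins and for vascular endothelial growth factors, lay on opposite sides of 0. NRP1 was at 55.6, 55.0 and 55.6 CPM without DOX and 69.7, 69.2 and 68.9 CPM with DOX. The replicates of a group were within 1 CPM of each other, and NRP1 rose by 0.32 (SE 0.07, edgeR adjusted p = 0.0220). The call was lost without any 1 of the DOX-negative libraries (adjusted p up to 0.134). NRP2 was at 76.1, 84.1 and 80.9 CPM without and 68.8, 68.7 and 59.7 CPM with DOX. Its groups did not overlap either, and its difference of -0.29 (SE 0.08, edgeR adjusted p = 0.0622) did not pass, although it did with DESeq2. The TPM ratio of NRP1 to NRP2 was 0.960, 0.860 and 0.903 without DOX and 1.33, 1.32 and 1.52 with DOX, so NRP2 was the more abundant neuropilin in the DOX-negative and NRP1 in the DOX-positive libraries.

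**Figure D3:**
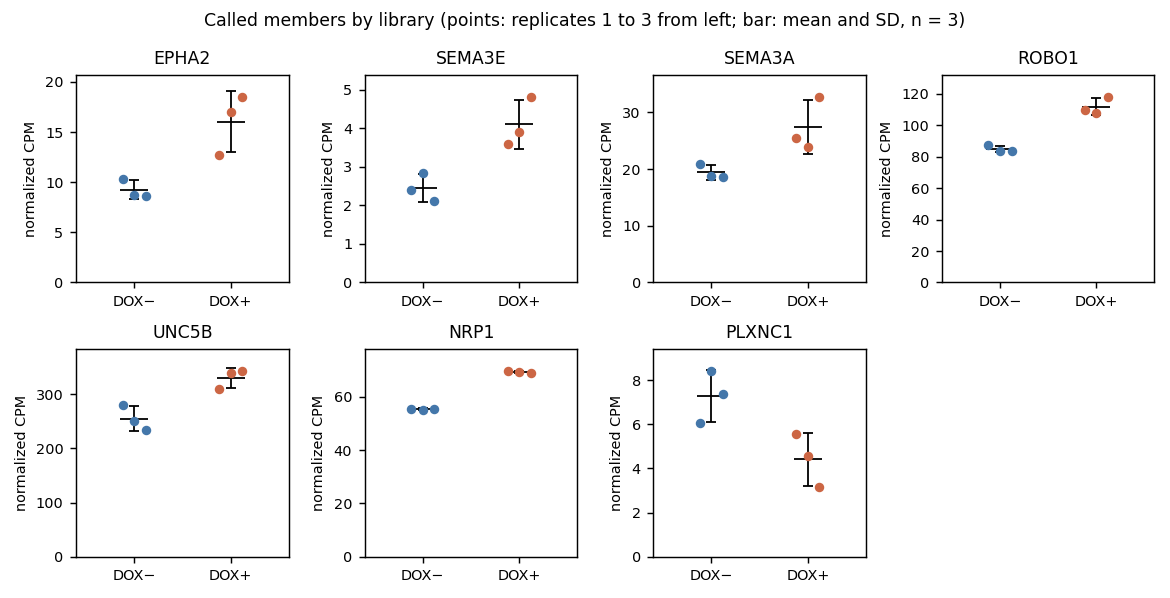
TMM-normalized CPM of the 7 called genes in each library (points, replicates 1 to 3 from the left; bars, mean and SD, n = 3). In each panel the DOX-negative and DOX-positive points do not overlap, and PLXNC1 is the only gene that was lower with DOX.

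EPHA2 had the largest difference of the 60 tested genes. EPHA2, a receptor for EFNA1 that is common in epithelial tumors, was at 10.3, 8.76 and 8.65 CPM without DOX and 12.7, 17.0 and 18.5 CPM with DOX. DOX-positive 1 was lowest of its group but above each DOX-negative library. EPHA2 rose by 0.79 (SE 0.14, edgeR adjusted p = 0.0105), and the call was lost without DOX-negative 2 or DOX-negative 3 (adjusted p up to 0.0847). On the TPM scale it remained a low-level receptor, at 1.01 to 1.48 TPM without and 1.92 to 2.55 TPM with DOX.

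EPHA7, the most abundant EPHA receptor in TPM and one enriched in the nervous system, was at 95.9, 111 and 112 CPM without and 96.2, 73.6 and 78.4 CPM with DOX. DOX-positive 1 was level with DOX-negative 1, so the groups overlapped, and the difference of -0.36 (SE 0.10, edgeR adjusted p = 0.0665) did not pass. EPHA7 was called without DOX-positive 1 (adjusted p = 0.0168). The TPM ratio of EPHA2 to EPHA7 was 0.207, 0.151 and 0.148 in the DOX-negative and 0.254, 0.444 and 0.454 in the DOX-positive libraries.

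Of the 4 tested EPHB receptors, 0 passed the edgeR test and 1 had an unadjusted p under 0.05. EPHB1 differed by 0.05 (95% interval -0.11 to 0.21). EPHB3 was at 17.9, 19.1 and 21.1 CPM without and 16.9, 16.4 and 11.6 CPM with DOX, with no overlap and DOX-positive 3 lowest (-0.37, SE 0.13, edgeR adjusted p = 0.133).

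Of the 8 ephrins, 0 passed the edgeR test and 3 had an unadjusted p under 0.05. EFNA1, the main ligand of EPHA2 and the most abundant ephrin, was at 19.5, 21.5 and 21.9 CPM without and 17.7, 21.0 and 19.9 CPM with DOX (-0.10, SE 0.09). The groups overlapped, and its 95% interval ran from -0.31 to 0.10. EFNA1, EFNA3 and EFNA4 lie 50.9, 98.3 and 116 kb from MUC1 on chromosome 1, and EFNA3 and EFNA4 differed by 0.01 (SE 0.14) and 0.03 (SE 0.16), so none of these neighbours of the silenced gene passed the test. EFNA2 was at 5.75 to 6.95 CPM without and 7.36 to 8.42 CPM with DOX (0.30, SE 0.11, edgeR adjusted p = 0.155). EFNA5, named for its values, was at 22.7 to 24.4 CPM and 26.3 to 30.3 CPM (0.26, SE 0.09, edgeR adjusted p = 0.0998). EFNB3, a membrane-spanning ephrin, was at 20.4 CPM or more without and 18.7 to 19.9 CPM with DOX (-0.19, SE 0.09, edgeR adjusted p = 0.224). These 3 ephrins had groups that did not overlap.

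ROBO1, a SLIT receptor and the most abundant ROBO in TPM, rose. It was at 87.2, 83.9 and 83.7 CPM without DOX and 110, 108 and 118 CPM with DOX. The gap between the groups exceeded the spread within either, and the rise was 0.40 (SE 0.07, edgeR adjusted p = 0.0122). The call was lost without DOX-negative 2 or DOX-negative 3 (adjusted p up to 0.0824). ROBO2 was at 7.40, 9.65 and 8.82 CPM without and 8.76, 7.16 and 3.97 CPM with DOX. Its groups overlapped and DOX-positive 3 was lowest (-0.38, SE 0.25). ROBO3 had only 27.7 mean counts, at 0.294 to 0.344 CPM and 0.503 to 0.582 CPM (0.74, SE 0.25, edgeR adjusted p = 0.110), and was named, like ROBO2, for its values.

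The SLIT ligands did not pass the test. SLIT2 was at 61.1, 62.8 and 65.5 CPM without and 58.9, 55.0 and 53.3 CPM with DOX. These groups did not overlap (-0.18, SE 0.07, edgeR adjusted p = 0.190). SLIT1 overlapped, at 51.2 to 59.9 CPM and 48.5 to 55.9 CPM. The cells thus held transcripts of SLIT1, SLIT2 and their receptors ROBO1 and ROBO2 in every library.

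UNC5B, which mediates repulsion by netrin and can trigger cell death when netrin is absent, was at 280, 250 and 234 CPM without DOX and 309, 339 and 343 CPM with DOX. All DOX-positive libraries lay above all DOX-negative ones, and UNC5B rose by 0.37 (SE 0.08, edgeR adjusted p = 0.0271). The call was lost without DOX-negative 2, DOX-negative 3 or DOX-positive 3 (adjusted p up to 0.148). UNC5B (chr10:71212570-71302864) overlaps the antisense gene UNC5B-AS1 (chr10:71217224-71218228), which was at 21.8, 22.1 and 11.8 TPM without and 31.6, 28.8 and 33.5 TPM with DOX. UNC5B-AS1 also rose (0.77, SE 0.16, edgeR adjusted p = 0.0223), and without a stated strand setting reads of the overlap cannot be assigned to either gene with certainty.

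The other netrin receptors did not pass. UNC5A differed by 0.02 (95% interval -0.18 to 0.22). DCC, the receptor for netrin attraction, was at 5.13, 6.90 and 7.44 CPM without and 7.20, 4.73 and 2.64 CPM with DOX. DOX-positive 1 was within the DOX-negative range and the other two libraries were below it (-0.41, SE 0.35, edgeR adjusted p = 0.561). Of the netrins, NTN4 was at 1.13 to 1.19 CPM and 1.32 to 1.63 CPM (0.34, SE 0.17, edgeR adjusted p = 0.275), without overlap. NTN1, the ligand of UNC5B and DCC, was at 9.70 to 11.6 CPM and 11.2 to 15.1 CPM (0.33, SE 0.12, edgeR adjusted p = 0.139) with overlap.

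**Figure D4:**
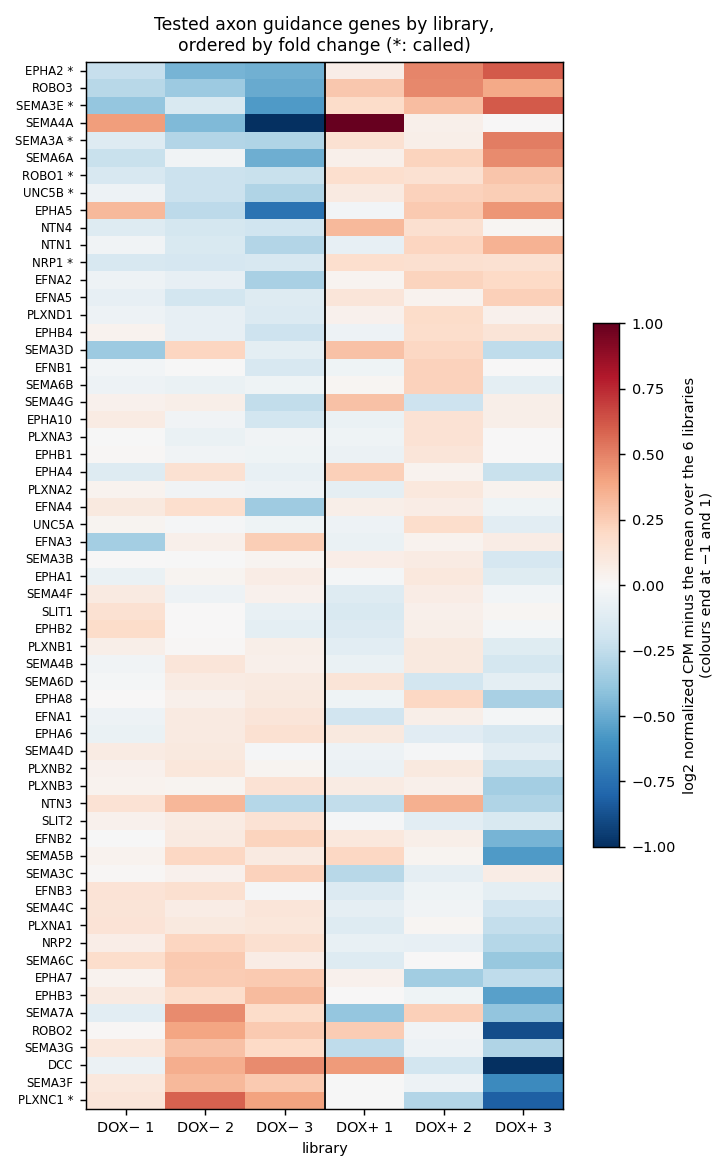
Log2 normalized CPM of each of the 60 tested genes in the 6 libraries, relative to the mean of that gene over the libraries (colour) and ordered by fold change, where stars mark called genes. DOX-positive 3 carried the lowest value in 27 of 60 rows and the highest value in 9.

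DOX-positive libraries were not alike across these genes. DOX-positive 3 was the lowest of 6 libraries in 27 of the 60 genes and the highest in 9, so it held an extreme value in 60%, against 46.2% of all tested genes. The split into lowest and highest is not given for all tested genes, so a skew particular to these genes cannot be told. DOX-positive 2 held one in 30% of the 60 genes against 53.1% of all tested genes. PLXNC1, SEMA3F, EPHB3, ROBO2 and DCC were lowest in DOX-positive 3, whereas EPHA2, SEMA3E, SEMA3A, ROBO1 and UNC5B were highest there.

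Markers of other cell types were measured beside these genes, because endothelial cells also express EPHA2, NRP1, UNC5B and PLXND1. Among all tested genes, 2.91% were called higher. Of 8 endothelial markers, 3 were tested and all 3 rose, namely VWF (0.97, SE 0.19), CDH5 (0.94, SE 0.17) and ESAM (0.57, SE 0.11). They averaged 144, 216 and 440 counts per library, respectively. The summed level of the list was 8.78 to 10.9 CPM without and 14.1 to 17.2 CPM with DOX. PECAM1, CLDN5, TEK, TIE1 and EMCN averaged at most 5.33 counts per library, and ROBO4 was at 0. Of 8 fibroblast markers, 3 were tested, COL1A1 (0.60, SE 0.12) and LUM (1.06, SE 0.24) rose, COL1A2 was at -0.71 (SE 0.27) without passing, and COL3A1 and THY1 were at 0, with a summed level of 25.2 to 30.7 CPM and 23.5 to 27.9 CPM. Of 8 leukocyte markers, 2 were tested and CD68 rose (0.78, SE 0.16), with CD3E at 0 and a sum of 2.53 to 3.04 CPM and 3.44 to 3.93 CPM. Of 8 Schwann cell and glial markers, 3 were tested and 0 called, with S100B and SOX10 at 0 and a sum of 228 to 253 CPM and 260 to 320 CPM. Most of that sum was ERBB3, which epithelial cells also express, at 213 to 238 CPM without and 245 to 301 CPM with DOX. Their part in the changes above was not tested.

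Other genes of the guidance pathways were read from hand-written lists of 106 downstream effectors and further cues, of which 103 were tested. In this set 2 genes rose and 4 fell, or 5.83% called against 4.87% of all genes, which is near the background. The median was 0.02, with 56 above and 47 below 0. None of 20 plexin and semaphorin effectors and none of 12 shared cytoskeletal effectors was called by edgeR (6 and 2 at an unadjusted p under 0.05). Calls were made for 2 of 15 EPH and ephrin effectors, 1 of 13 SLIT and ROBO effectors, 2 of 14 netrin effectors and 1 of 29 other cues and receptors.

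Of the 4 genes that fell, CHN2 and KALRN act on small GTPases. CHN2, a Rac GTPase-activating protein, was at 24.5, 28.2 and 27.5 CPM without and 21.6, 17.4 and 15.8 CPM with DOX (-0.55, SE 0.11, edgeR adjusted p = 0.0218). KALRN, a guanine nucleotide exchange factor, was at 49.9 to 58.8 CPM and 38.0 to 41.0 CPM (-0.40, SE 0.09, edgeR adjusted p = 0.0231). USP33, a deubiquitinase that binds ROBO1, was at 88.1, 96.2 and 94.8 CPM and 71.6, 55.8 and 68.9 CPM (-0.51, SE 0.09, edgeR adjusted p = 0.0142). USP33 thus fell where its partner ROBO1 rose. The last of them was CDON, a cell-surface receptor of the immunoglobulin superfamily, at 128 to 145 CPM and 106 to 112 CPM (-0.33, SE 0.07, edgeR adjusted p = 0.0277).

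The genes that rose were ABLIM3 and NFATC1. ABLIM3, an actin-binding LIM protein, was at 36.8, 32.4 and 32.2 CPM without and 41.8, 45.5 and 46.9 CPM with DOX (0.40, SE 0.09, edgeR adjusted p = 0.0233). NFATC1, a calcium-regulated transcription factor, was at 8.80 to 10.7 CPM and 12.3 to 15.2 CPM (0.48, SE 0.11, edgeR adjusted p = 0.0304). Groups did not overlap for any of the 6 called genes. None of them was called without DOX-negative 2 or without DOX-negative 3, and only CDON and USP33 were called without DOX-positive 3. Without DOX-negative 2 or DOX-negative 3, 16 and 20 of the list had an unadjusted p under 0.05. The matching share of all genes is not given here.

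**Figure D5:**
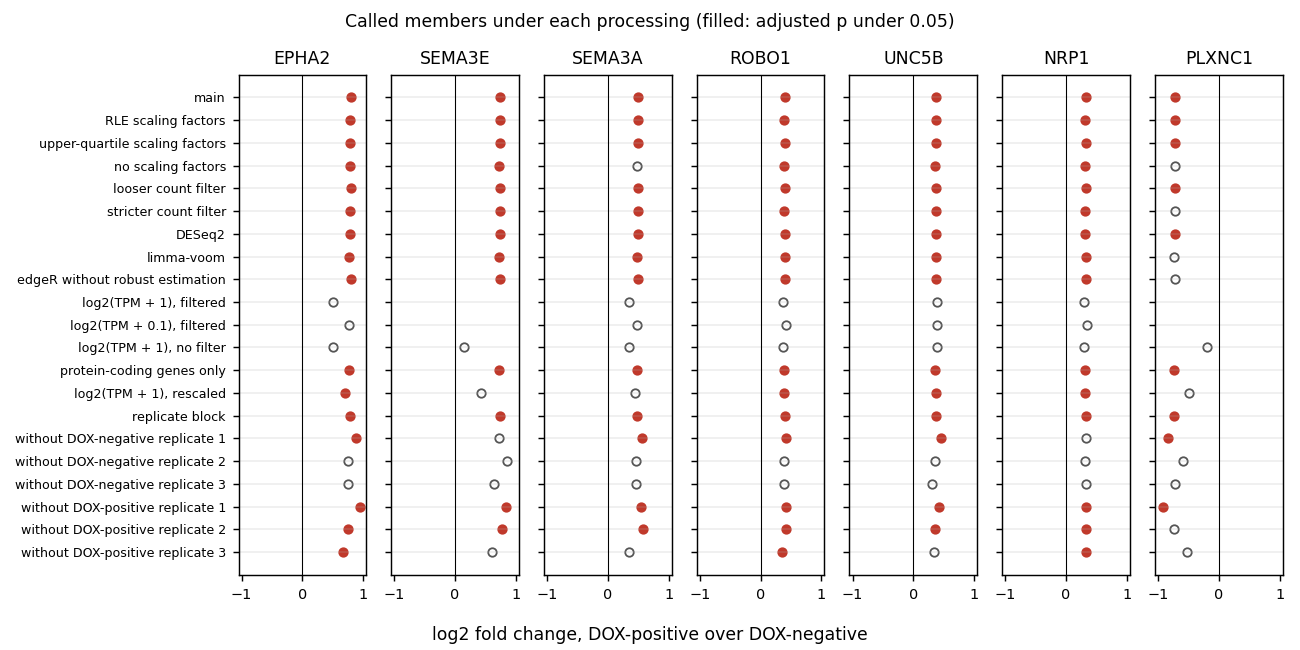
Log2 fold change of the 7 called genes under each processing alternative (filled, adjusted p under 0.05; open, not called; no point where the gene was filtered out). Each gene stays on 1 side of 0 throughout, while the points open without DOX-negative 2, without DOX-negative 3 and on deposited TPM.

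Across the 20 alternatives, EPHA2 and ROBO1 were called in 15 each, NRP1 and UNC5B in 14 each and SEMA3A in 12. SEMA3E was called in 12 and PLXNC1 in 8 of the 18 alternatives in which they were tested. The size of the NRP1 change ranged from 0.30 to 0.34 and that of ROBO1 from 0.36 to 0.43. On log2(TPM + 1), a scale that understates changes of low genes, SEMA3E came down to 0.15 and PLXNC1 to -0.19.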

How the data were processed

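RNA-seq of 6 H660 libraries (3 DOX-negative, 3 DOX-positive) was analysed. The deposited counts are raw reads per gene symbol, which the authors made with STAR against GRCh38/hg38 (submitters' processing notes, which also name DESeq2). The deposited TPM are values divided by gene length and scaled to the same sum in each library. Versions, annotation and strand setting are not given in the sources used here. The labels name a stranded mRNA kit, although RN7SK held 5.83% to 7.79% of the counts.

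Counts were filtered with filterByExpr, scaled with TMM and tested with edgeR 4.0.16 in R 4.3.3 (robust quasi-likelihood test, no covariate) with Benjamini-Hochberg adjustment over 17026 genes. SE were derived from the F statistic. The common dispersion was 0.00917, and no pair of replicates differed by as little as sampling noise. The code was tested on simulated data. The report names each called member, the 10 highest by TPM, the largest difference of at least 50 mean counts in each family, MUC1 and called pathway genes. NRP2, SEMA3C, SEMA3D, SEMA3F, SEMA7A, PLXND1, EFNA3, EFNA4, EFNA5, ROBO2, ROBO3, SLIT1, NTN1, UNC5A, CEP83 and UNC5B-AS1 were added after their values were seen. Members and lists were chosen with earlier results of these data known.

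Results were recomputed with DESeq2 1.42.0, with RLE, upper-quartile or no scaling factors, with a looser or stricter count filter, with limma-voom and limma-trend on log2 TPM (limma 3.58.1; pseudocounts 1 and 0.1, minimum mean 1 TPM or none), no robust estimation, protein-coding genes only, a replicate block and leaving out each library. Rescaled TPM were added after the data were seen. Coordinates and promoters came from RefSeq (GRCh38.p14); 64 of the 76 symbols had a promoter. The level of 1 marker gene is not reported here.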

Additional observations from a re-analysis of the deposited data

How the results depend on the processing

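Counts of all genes called moved from 829 to 1355 with DESeq2, 30 and 35 on log2 TPM with pseudocounts of 1 and 0.1, 0 on unfiltered log2(TPM + 1) (limma-trend; 1248 at an unadjusted p under 0.05), 390 on rescaled TPM, and 58 to 1035 when 1 library was left out. Of these calls 59.8% were higher, against 43.3% and 45.7% in the filtered TPM fits. Members called, 7, became 0 in each of the 3 fits on deposited TPM, 4 on rescaled TPM and 0 to 9 with 1 library left out. Pathway genes called, 6, became 12 with DESeq2, 0 in each fit on deposited TPM and 1 on rescaled TPM. With 1 library left out they became 0 to 10. Among all tested genes, 4.87% were called in the main fit and 8.43% with DESeq2. The share was 0% to 0.299% on deposited TPM, 3.08% on rescaled TPM and 0.337% to 6.02% with 1 library left out. MUC1 lost its call only on unfiltered log2(TPM + 1), at -1.22 (adjusted p = 0.286), and ranged from -1.37 to -1.22 with 1 library left out. The cause of these shifts was not tested. For the other 29 genes of the naming rule, fits with all libraries gave 394 values, of which 343 kept their side of the threshold, 48 lost and 3 gained the call, and 0 changed the sign of a called value. Leaving out 1 library gave 174 values, with 131, 41 and 2, respectively. Same-numbered replicates deviated with correlations of -0.56, 0.022 and -0.077 over 14587 genes, so no such pair clearly deviated together. With 3 libraries per group, these correlations cannot exclude a pairing of the samples. A replicate block gave 998 of 17026 tested genes, against 829 in the main fit. With it came 9 members (EPHA7 and SEMA3F added), 7 pathway genes and -1.32 for MUC1. Having 3 libraries per group limit the precision of low genes such as ROBO3.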
